A study of Rattus norvegicus with 8 samples.

Results

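Marker genes of the liver cells that are not hepatocytes were examined in perfused rat livers. The list holds 41 textbook marker genes. Membership follows from the gene name and not from a measured value, although the list was drawn up with earlier results of these data known. It has 16 genes of macrophages (Kupffer cells), 14 of sinusoidal endothelial cells and 11 of stellate cells. Of these, 37 had a probe set (the group of array probes read as 1 value) that carries their symbol alone, out of 14506 genes measured in that way. They comprised all 16 macrophage genes, 10 endothelial genes and all 11 stellate genes, with 1 probe set each. The endothelial genes Stab1, Stab2, Clec4g and Vwf were not analysed here.

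Livers of male Wistar rats, an outbred strain, aged 6 to 10 weeks, were perfused with Krebs-Henseleit buffer in both groups. The buffer was hypoosmotic at 225 mosm/L for 4 samples and normoosmotic at 305 mosm/L for the other 4, and the labelled time was 120 min throughout. Total RNA of whole liver was hybridised to 1-colour Affymetrix arrays, 1 per sample, so that every value mixes hepatocytes with the rarer cells described here. An isolated liver receives no circulating blood during perfusion, which leaves it with its resident cells and those that stayed in its vessels. Whether each liver stood for its own animal is not stated in the labels, and the p-values below therefore cover the spread among these 8 samples alone, part of which may be technical.

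Kupffer cells are macrophages that sit inside the liver sinusoids and clear particles, microbes and old blood cells from the blood. Sinusoidal endothelial cells line the same vessels with a perforated wall without a basement membrane and take up waste molecules through scavenger receptors. Stellate cells lie between endothelium and hepatocytes, store vitamin A, and turn into collagen-producing contractile cells when the liver is injured. All are reached by the perfusate, and water enters cells when the fluid around them is dilute.

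The stretch from 250 bases before to 50 bases after the start site, from the RefSeq table of the GRCr8 assembly, could be matched for 26 of the 37 genes. Sequences of 2 macrophage genes, 1 endothelial gene and 1 stellate gene are shown as examples of stretches from each marker group that hold a word searched for. Capitals in the first 3 mark GAGGAAG or its other strand, CTTCCTC, a word that fits sites of PU.1, the ETS family factor of myeloid cells. Capitals in Acta2 mark CCCTATATGG and CCTTGTTTGG, the pair of CArG elements known from this smooth muscle promoter (found as CC, 6 bases of which at least 5 are A or T, and GG), and its TATA element, TATATAA.
Cd68 (GRCr8 chr10:54882392-54882691, minus strand): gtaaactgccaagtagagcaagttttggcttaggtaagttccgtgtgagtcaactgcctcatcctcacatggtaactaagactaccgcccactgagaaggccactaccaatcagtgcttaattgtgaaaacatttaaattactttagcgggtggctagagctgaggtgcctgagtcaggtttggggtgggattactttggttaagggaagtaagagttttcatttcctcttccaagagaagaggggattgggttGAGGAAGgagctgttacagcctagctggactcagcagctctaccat
Marco (GRCr8 chr13:34201206-34201505, minus strand): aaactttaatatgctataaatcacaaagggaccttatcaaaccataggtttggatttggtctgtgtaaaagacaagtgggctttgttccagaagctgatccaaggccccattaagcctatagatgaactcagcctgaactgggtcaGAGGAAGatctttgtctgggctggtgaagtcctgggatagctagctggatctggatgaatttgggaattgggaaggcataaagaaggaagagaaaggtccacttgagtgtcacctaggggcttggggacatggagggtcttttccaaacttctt
Tie1 (GRCr8 chr5:137304932-137305231, minus strand): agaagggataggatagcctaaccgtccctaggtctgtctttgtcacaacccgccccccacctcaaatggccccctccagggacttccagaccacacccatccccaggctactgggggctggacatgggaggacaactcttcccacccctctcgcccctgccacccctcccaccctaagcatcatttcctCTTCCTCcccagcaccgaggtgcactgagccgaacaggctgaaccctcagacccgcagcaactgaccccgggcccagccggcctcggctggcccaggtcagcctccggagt
Acta2 (GRCr8 chr1:241172454-241172753, minus strand): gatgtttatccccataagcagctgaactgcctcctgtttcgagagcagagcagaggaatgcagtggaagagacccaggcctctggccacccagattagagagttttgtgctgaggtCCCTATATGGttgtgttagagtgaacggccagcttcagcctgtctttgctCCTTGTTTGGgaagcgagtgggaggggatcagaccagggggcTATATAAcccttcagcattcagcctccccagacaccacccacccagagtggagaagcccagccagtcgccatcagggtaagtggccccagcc
GAGGAAG stood on either strand in 6 of 13 macrophage, 4 of 6 endothelial and 0 of 7 stellate stretches, against 12.4% of all 33469 stretches of the table. Its shorter core GAGGAA, which every such match contains, stood in 9, 4 and 2 of them, against 27.6%. Of the other words searched, GGAAGT stood in 6, 5 and 2 (22.6% of all), GGGCGG in 2, 4 and 4 (33.1%), TATAAA in 1, 1 and 1 (14.2%) and CACCC in 8, 4 and 5 (54.9%). CCGGAAG (8.75% of all) and the strict CArG box (1.64%) stood in none of the 26. A match describes letters only, and GAGGAAG was given first after all words had been searched. The looser CArG rule and TATATAA were searched in the Acta2 stretch alone, so no share over other stretches stands beside them.

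Levels are given on the authors' log2 scale, and a change is the hypoosmotic mean minus the normoosmotic mean, so that 1 unit is a 2-fold difference. Hepatocyte genes identified the tissue. Albumin (Alb) read 13.0 ± 0.07 in hypoosmotic and 13.1 ± 0.01 in normoosmotic samples (SD, n = 4 each), and all 10 hepatocyte genes had means above the 75th percentile of gene means, 6.35. Of the marker genes of this report, 36 of 37 had a mean above the median gene, 4.65, and only Lum lay in the lowest 25% of genes. No detection call was used, so these ranks do not establish which genes were expressed. Brightness of 2 probe sets is not compared here, because it depends on the probes. Over all 8 arrays the medians of all probe sets lay between 4.05 and 4.16. Means of markers for T and NK cells, neutrophils and monocytes, dendritic cells, erythroid cells and platelets lay between 1.65 and 4.82. In the test between the buffers 0 of their 11, 9, 5 and 5 measured genes were called, against 1.98% of all genes. For lists this short 0 is close to that share.

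None of the 37 marker genes passed the test between the buffers. At an adjusted p under 0.05 (limma, Benjamini-Hochberg over all 14506 genes), 0 of 37 were called in either direction, against 287 or 1.98% of all genes, and for a list of this size 0 is close to that share. Without adjustment 2 of 37 had a p under 0.05, Tyrobp upward and Reln downward, against 14.6% of all genes. The hypoosmotic and normoosmotic values did not overlap in 1 of 37, Pecam1, against 8.27% of all genes. Adjusted p-values of the 37 ran from 0.242 to 0.997. Fewer cells of a type and less RNA per cell cannot be told apart in such values.

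The intervals limit how large a change could have gone unseen. The 95% intervals of all 37 genes lay within a 2-fold change in either direction, and 27 lay within 1.5-fold, including all 10 endothelial genes. The limits furthest from 0 were −0.86 for Lum and 0.87 for Clec4f on the log2 scale. As a guide to sensitivity, the median standard error was 0.17 over the 37 genes, and 0.13 over all genes.

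**Figure D1:**
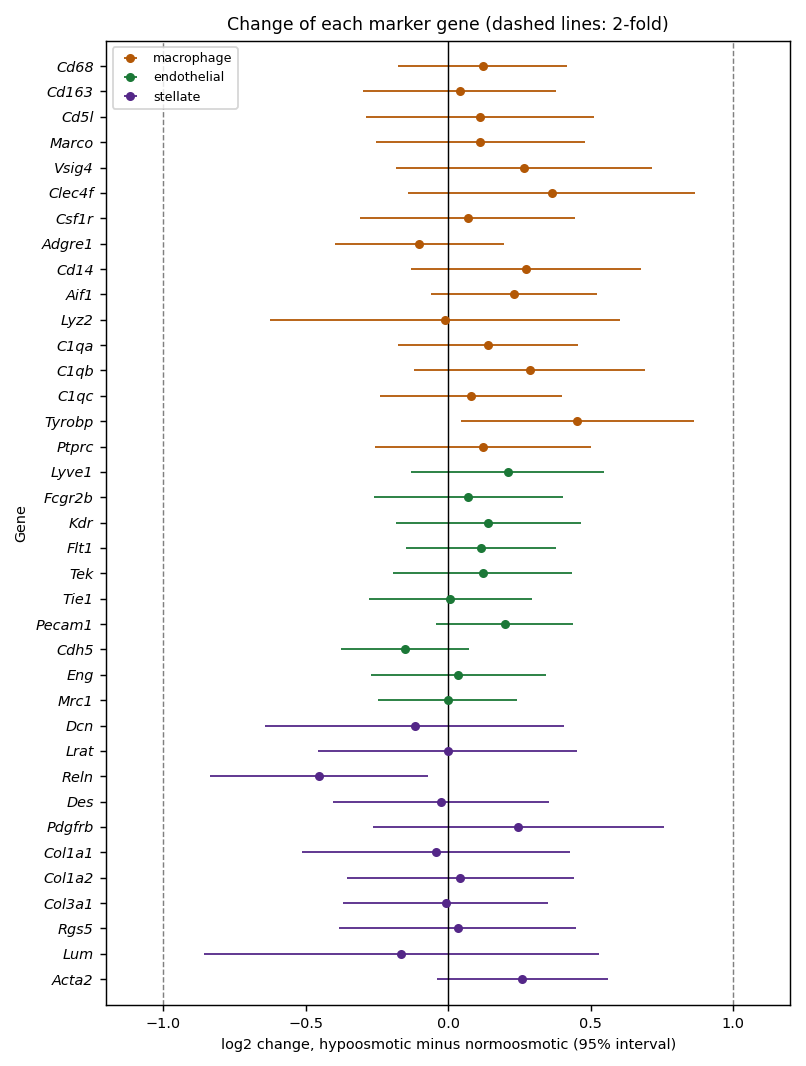
Log2 change of each of the 37 marker genes, hypoosmotic minus normoosmotic, with its 95% interval from the limma fit (4 arrays per group); dashed lines mark 2-fold. No interval reaches a dashed line, and those of Tyrobp and Reln alone exclude 0, without adjustment for the number of genes.

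Among macrophage genes, those of the resident Kupffer cell were examined first. Clec4f, a lectin gene that marks Kupffer cells in rodents, read 7.24, 7.83, 7.51 and 6.75 in hypoosmotic replicates 1 to 4, against 7.13, 6.78, 6.49 and 7.48 in normoosmotic replicates 1 to 4. The groups overlapped over most of their range, with hypoosmotic replicate 2 highest and normoosmotic replicate 3 lowest. The change was 0.36 with a 95% interval of −0.14 to 0.87 (adjusted p = 0.535), and single arrays moved it: it was 0.197 without hypoosmotic replicate 2, 0.203 without normoosmotic replicate 3 and 0.557 without hypoosmotic replicate 4. Vsig4, a complement receptor that takes up opsonised particles, read 7.44, 8.14, 7.72 and 7.34 in hypoosmotic samples, against 7.78, 6.94, 7.16 and 7.70 in normoosmotic ones. Its change was 0.26 ± 0.21 (SE; adjusted p = 0.629), again smaller than the spread within either group, and lay between 0.105 (without hypoosmotic replicate 2) and 0.393 (without normoosmotic replicate 1) with 1 array left out.

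Marco, Cd163, Cd5l and Cd68 had smaller fitted changes than Clec4f and Vsig4, but the 95% intervals overlapped. Marco, a receptor for bacteria and particles, averaged 6.79 ± 0.26 in hypoosmotic and 6.67 ± 0.32 in normoosmotic samples (SD, n = 4 each). Cd163, the receptor for haptoglobin-bound haemoglobin, averaged 6.70 ± 0.32 and 6.66 ± 0.17 in the same order. Cd5l, a secreted protein of tissue macrophages, had a change of 0.11 (95% interval −0.29 to 0.51), and Cd68, a lysosomal membrane protein, one of 0.12 (−0.18 to 0.42).

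Cd14, which hands bacterial lipopolysaccharide to its signalling receptor, read 9.90, 9.76, 9.97 and 10.14 in hypoosmotic samples, against 9.79, 9.50, 9.17 and 10.22 in normoosmotic ones. The hypoosmotic values lay inside the range of the normoosmotic ones, and the change was 0.27 ± 0.19 (SE; adjusted p = 0.570), with 0.106 without normoosmotic replicate 3 and 0.456 without normoosmotic replicate 4. Csf1r, the receptor for the growth factor on which macrophages depend, had a change of 0.07 (95% interval −0.31 to 0.44). Adgre1, the F4/80 antigen, was the macrophage gene with the lowest change, −0.10 (−0.40 to 0.19).

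The 3 chains of complement C1q, the molecule that starts the classical complement pathway, are encoded by neighbouring genes and were measured by separate probe sets. C1qa read 6.38, 6.97, 6.41 and 6.34 in hypoosmotic samples, against 6.31, 6.40, 6.28 and 6.56 in normoosmotic ones. C1qb read 6.67, 7.36, 6.93 and 6.86, against 6.82, 6.36, 6.37 and 7.13. C1qc read 7.02, 7.29, 6.89 and 6.86, against 7.0, 6.79, 6.67 and 7.28. All chains were highest in hypoosmotic replicate 2 and, within their group, in normoosmotic replicate 4. Their changes were 0.14 for C1qa, 0.28 for C1qb and 0.08 for C1qc, with adjusted p-values of 0.740, 0.546 and 0.867. Without hypoosmotic replicate 2 they were −0.011, 0.15 and −0.012, and without normoosmotic replicate 4 that of C1qb was 0.438.

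Tyrobp, the adaptor DAP12 through which several myeloid receptors signal, had the largest change of the macrophage genes. It read 5.56, 6.03, 5.42 and 5.50 in hypoosmotic samples, against 5.24, 4.82, 4.94 and 5.70 in normoosmotic ones. Hypoosmotic values lay above 3 of the 4 normoosmotic values but overlapped with normoosmotic replicate 4. The change was 0.45 ± 0.19 (SE), or 1.37-fold with a 95% interval of 1.03 to 1.82, and did not pass adjustment (adjusted p = 0.284). It was 0.318 without hypoosmotic replicate 2 (adjusted p = 0.584) and 0.627 without normoosmotic replicate 4 (adjusted p = 0.0848).

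Of the more general leukocyte genes, Aif1, which encodes a calcium-binding protein of macrophages, had a change of 0.23 (95% interval −0.06 to 0.52), and Ptprc, the CD45 phosphatase of all leukocytes, one of 0.12 (−0.26 to 0.50). Lyz2, a lysozyme gene of myeloid cells, followed another order over the arrays. It read 6.66, 6.21, 6.47 and 7.46 in hypoosmotic samples, against 6.44, 6.18, 6.72 and 7.51 in normoosmotic ones, with 1 array well above the rest in each group. Its change was −0.01 (−0.63 to 0.60), and it had no settled sign: it was −0.266 without hypoosmotic replicate 4 and 0.253 without normoosmotic replicate 4.

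Of the endothelial genes, the scavenger and uptake receptors are given first. Lyve1, a hyaluronan receptor, read 8.59, 8.99, 8.80 and 8.87 in hypoosmotic samples, against 8.41, 8.52, 8.41 and 9.08 in normoosmotic ones. Normoosmotic replicate 4 was the highest of all 8 arrays, and the other 3 normoosmotic values lay below every hypoosmotic value. The change was 0.21 (95% interval −0.13 to 0.55). With 1 array left out it lay between 0.143 (without normoosmotic replicate 1) and 0.366 (without normoosmotic replicate 4, adjusted p = 0.189). Fcgr2b, the inhibitory Fc receptor that removes immune complexes in the sinusoids, averaged 8.92 ± 0.20 in hypoosmotic and 8.85 ± 0.29 in normoosmotic samples (SD, n = 4 each). Mrc1, the mannose receptor, which macrophages also express, had a change of −0.0025 (−0.25 to 0.24).

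The receptors of vascular growth factors lay close to 0. Kdr, the main receptor of VEGF-A, read 7.59, 7.75, 7.77 and 7.44 in hypoosmotic samples, against 7.20, 7.34, 7.56 and 7.89 in normoosmotic ones, and normoosmotic replicate 4 was again the highest. Its change was 0.14 (95% interval −0.18 to 0.46), with 0.041 without normoosmotic replicate 1 and 0.271 without normoosmotic replicate 4. Flt1, another VEGF receptor, had a change of 0.12 (−0.15 to 0.38), Tek, the angiopoietin receptor, one of 0.12 (−0.19 to 0.43) and Tie1, its partner receptor, one of 0.01 (−0.28 to 0.29). Eng, a co-receptor for BMP9 and TGF-beta, had a change of 0.03 (−0.27 to 0.34).

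Pecam1, an adhesion molecule of endothelial junctions, read 6.56, 6.78, 6.47 and 6.48 in hypoosmotic samples, against 6.39, 6.26, 6.44 and 6.41 in normoosmotic ones. The gap between the groups was narrow, between 6.47 and 6.44. The change was 0.20 ± 0.11 (SE), or 1.15-fold (95% interval 0.97 to 1.36; adjusted p = 0.467), and 0.128 without hypoosmotic replicate 2. Cdh5, VE-cadherin of the same junctions, lay on the other side of 0 with a change of −0.15 (−0.38 to 0.07), at 6.43, 6.65, 6.56 and 6.50 in hypoosmotic samples, against 6.71, 6.62, 6.66 and 6.76 in normoosmotic ones. These junction genes thus had fitted changes of opposite sign, neither of which passed the test.

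**Figure D2:**
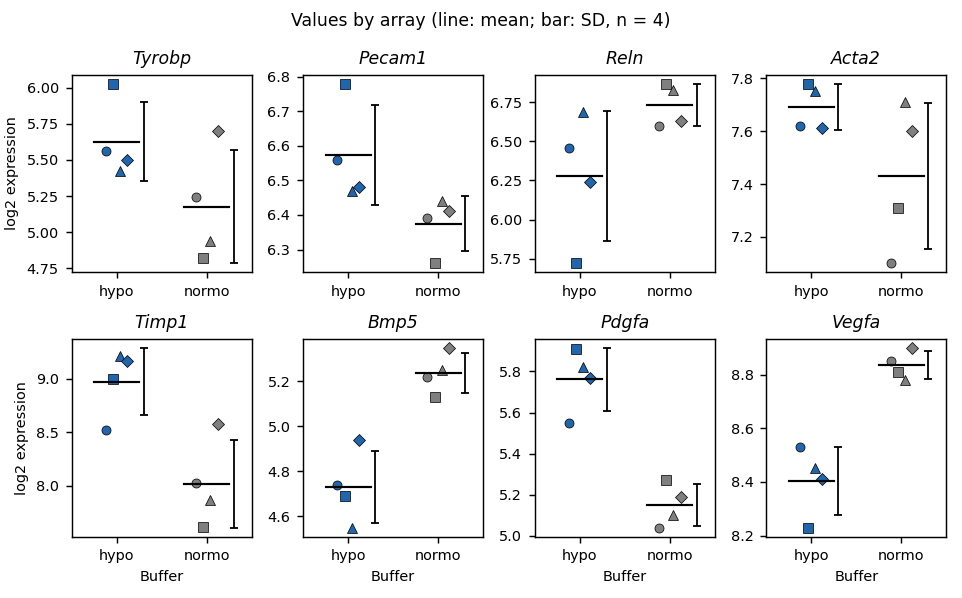
Log2 expression of 4 marker genes (Tyrobp, Pecam1, Reln, Acta2) and of Timp1, Bmp5, Pdgfa and Vegfa on each array, hypoosmotic left (blue) and normoosmotic right (grey); the line is the mean, the bar the SD (n = 4), and circles, squares, triangles and diamonds are replicates 1 to 4. Each panel has its own axis. Groups are apart for Pecam1, Bmp5, Pdgfa and Vegfa, and overlap for the others.

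Stellate genes of vitamin A storage and quiescence did not move together. Lrat, the enzyme that makes retinyl esters, read 7.27, 7.60, 7.06 and 7.16 in hypoosmotic samples, against 7.36, 6.66, 7.21 and 7.87 in normoosmotic ones, and its change was −0.0025 (95% interval −0.46 to 0.45). Reln, a secreted glycoprotein used as a marker of stellate cells, read 6.46, 5.72, 6.69 and 6.24, against 6.60, 6.87, 6.83 and 6.63. Hypoosmotic replicate 3 overlapped with the normoosmotic samples, and replicate 2 lay furthest below them. The change of Reln was −0.46 ± 0.18 (SE), or 0.73-fold (0.56 to 0.95; adjusted p = 0.242), the largest of the stellate genes in size. It was −0.269 without hypoosmotic replicate 2 (adjusted p = 0.519) and −0.592 without hypoosmotic replicate 3 (adjusted p = 0.125). Des, the muscle-type intermediate filament gene, had a change of −0.03 (−0.40 to 0.35).

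The matrix genes were centred on 0. Col1a1 and Col1a2, the chains of type I collagen, had changes of −0.04 (95% interval −0.51 to 0.43) and 0.04 (−0.35 to 0.44), and Col3a1, type III collagen, one of −0.01 (−0.37 to 0.35). Col1a1 read 6.03, 6.38, 6.86 and 6.14 in hypoosmotic samples, against 5.99, 6.32, 6.25 and 7.02 in normoosmotic ones. The highest array was hypoosmotic replicate 3 in the first group and normoosmotic replicate 4 in the other, and the same 2 arrays led for Col1a2 and Col3a1. The proteoglycan genes Dcn and Lum, which shape collagen fibrils, had changes of −0.12 (−0.64 to 0.41) and −0.17 (−0.86 to 0.53). Lum read 3.17, 3.12, 2.98 and 2.81 in hypoosmotic samples, against 2.82, 2.35, 3.15 and 4.42 in normoosmotic ones. Its single high value was that of normoosmotic replicate 4, without which its change was 0.247.

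Of the contractile and pericyte genes, Acta2, smooth muscle actin, read 7.62, 7.78, 7.75 and 7.61 in hypoosmotic samples, against 7.10, 7.31, 7.71 and 7.60 in normoosmotic ones. Hypoosmotic samples were tightly grouped, and 1 normoosmotic sample lay within their range. The change was 0.26 ± 0.14 (SE; 95% interval −0.04 to 0.56; adjusted p = 0.428), and 0.15 without normoosmotic replicate 1. Pdgfrb, the receptor for PDGF-B, had a change of 0.25 (−0.27 to 0.76) that was 0.087 without normoosmotic replicate 1 (adjusted p = 0.929) and 0.517 without normoosmotic replicate 4 (adjusted p = 0.156). Rgs5, a regulator of G protein signalling in pericytes, had one of 0.03 (−0.38 to 0.45).

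Compared as groups, the macrophage genes had a median log2 change of 0.12 (14 above and 2 below 0), the endothelial genes one of 0.09 (8 and 2) and the stellate genes one of −0.01 (4 and 7). Over all genes the median was 0.04, with 8507 above and 5999 below 0. These sign counts rest on single arrays: without hypoosmotic replicate 2, 9 macrophage genes lay above and 7 below 0, without normoosmotic replicate 4, 9 stellate genes lay above and 1 below, and without normoosmotic replicate 2, 5 endothelial genes lay above and 5 below. The mean level of the 16 macrophage genes on an array was 6.73 ± 0.19 in hypoosmotic and 6.57 ± 0.26 in normoosmotic samples (SD, n = 4 each), that of the 10 endothelial genes 7.18 ± 0.09 and 7.10 ± 0.18, and that of the 11 stellate genes 6.24 ± 0.14 and 6.26 ± 0.35. The differences of 0.16, 0.07 and −0.02 were each smaller than the spread between normoosmotic samples. The median of the stellate genes turned to 0.17 without normoosmotic replicate 4, and that of the macrophage genes was 0.22 without that array and 0.04 without hypoosmotic replicate 2. For the endothelial genes, leaving out normoosmotic replicate 4 gave a median of 0.18, leaving out replicate 2 of that group gave 0.02, and leaving out its replicate 1 gave 0.04.

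**Figure D3:**
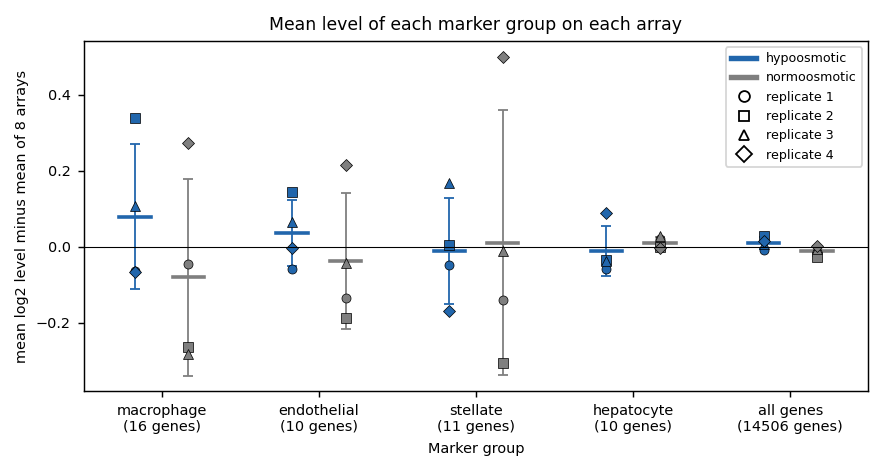
Mean log2 level of the macrophage, endothelial, stellate and hepatocyte genes and of all genes on each array, minus the mean of the 8 arrays; hypoosmotic blue and left, normoosmotic grey and right, with group mean and SD (n = 4). Normoosmotic replicate 4 (diamond) is the highest normoosmotic array for the 3 non-hepatocyte groups, at 0.27, 0.22 and 0.50, and hypoosmotic replicate 2 (square) the highest hypoosmotic one for macrophage and endothelial genes, at 0.34 and 0.14.

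For the mean level of each marker group, the spread between arrays of one buffer was larger than the difference between buffers. This did not hold for every single gene. The change of Reln was −0.455 against a pooled SD within groups of 0.309, and that of Tyrobp 0.45 against 0.338. Differences between arrays were shared between genes. Normoosmotic replicate 4 gave the highest normoosmotic value in 30 of the 37 genes, in 13 of 16 macrophage, 9 of 10 endothelial and 8 of 11 stellate genes, against 25.9% of all 14506 genes. It gave the lowest in 0 of 37. Hypoosmotic replicate 2 gave the highest hypoosmotic value in 13 of 16 macrophage and 5 of 10 endothelial genes but in 3 of 11 stellate genes, against 24.2% of all genes. For the stellate genes hypoosmotic replicate 3 led in 6 of 11 (25.1% of all genes). These counts are descriptions of the arrays and were not tested.

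The lowest arrays were also shared between genes of one marker group, but they differed in part between the groups. Normoosmotic replicates 2 and 3 were lowest of their group in 7 and 8 of the 16 macrophage genes, against 27.1% and 19.9% of all genes. Normoosmotic replicate 1 was lowest in 7 of the 11 stellate genes, against 25.1% of all genes, but in 1 of the 16 macrophage genes. Normoosmotic replicate 3 was lowest in 0 of the 11 stellate genes. The mean of the macrophage genes was 6.93 in normoosmotic replicate 4 and 6.39 in normoosmotic replicate 2. For the stellate genes these arrays read 6.75 and 5.94. The hepatocyte genes, in the same arrays, averaged 11.90 and 11.90, and over each buffer 11.89 ± 0.07 in hypoosmotic and 11.91 ± 0.02 in normoosmotic samples (SD, n = 4 each). Within the hypoosmotic group they were highest in replicate 4, at 11.99, which led in 9 of 10 hepatocyte genes, against 28.4% of all genes. It was the lowest hypoosmotic array in 15 of the 37 marker genes, against 26.2% of all genes. The part of this array in the results was not tested beyond leaving it out.

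**Figure D4:**
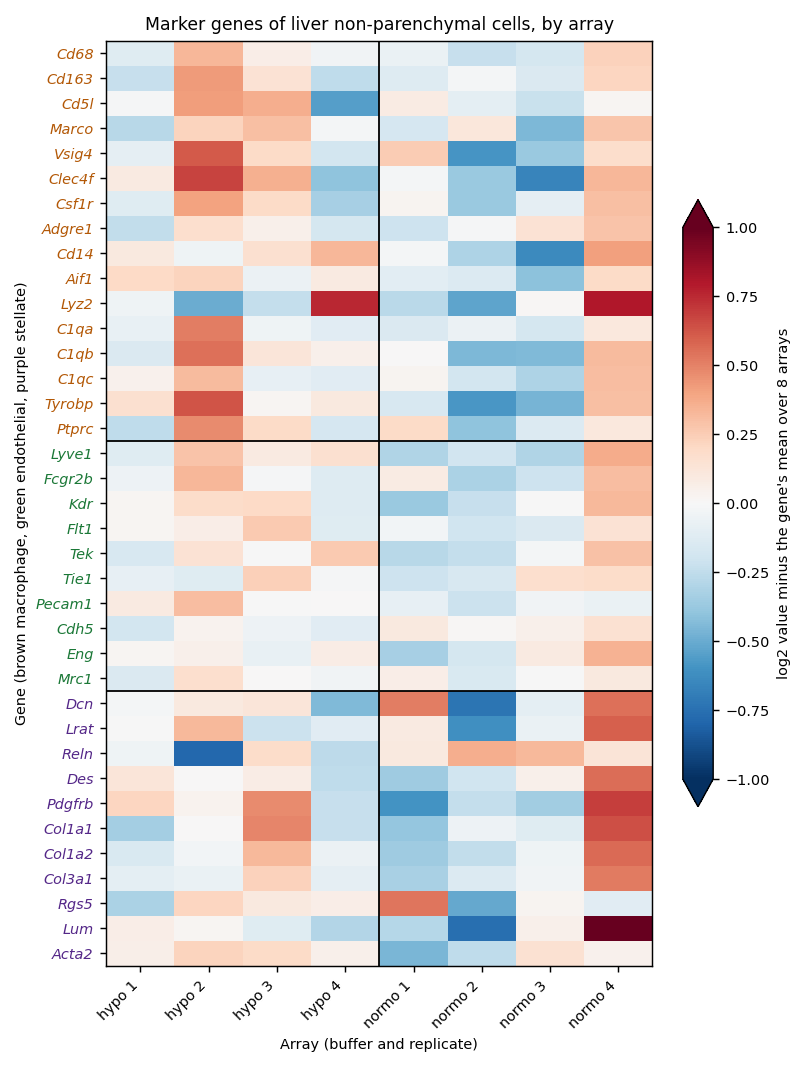
Log2 value of each marker gene on each array minus the gene's mean over the 8 arrays, hypoosmotic arrays left of normoosmotic ones; red is above and blue below the mean, and the colour scale stops at 1 and −1. The columns of normoosmotic replicate 4 and, in the macrophage rows, of hypoosmotic replicate 2 are mostly red; in the first, Pecam1 and Rgs5 lie below their mean, and in the other the macrophage genes Cd14 and Lyz2 do.

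The typical spread within groups was wider for macrophage and stellate genes than over all genes, and for endothelial genes it was close to that of all genes. The median of the pooled SD was 0.30 log2 units over macrophage genes, 0.20 over endothelial genes and 0.35 over stellate genes, and 0.19 over all genes. Relative to the stellate genes on the same array, the macrophage genes stood at 0.39, 0.74, 0.34 and 0.51 in hypoosmotic replicates 1 to 4, against 0.50, 0.45, 0.13 and 0.18 in normoosmotic replicates 1 to 4 (mean of log2 values minus mean of log2 values). This difference was 0.49 ± 0.18 in hypoosmotic and 0.31 ± 0.19 in normoosmotic samples (SD, n = 4 each), and the groups overlapped. It is set by the probes as well as the cells, so that only its variation over arrays can be read. Neither array's part in the changes was tested beyond leaving it out, and without both arrays again 0 of 37 genes were called, while the count over all genes was 66.

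Further genes of the same cell types, not used above, were read on the same arrays. They are therefore no independent support for the array pattern. Of 22 other macrophage genes, normoosmotic replicate 4 was highest of its group in 19 and hypoosmotic replicate 2 in 15, and of 23 other endothelial genes in 16 and 13. Of 25 other stellate genes these arrays led in 17 and 9, and hypoosmotic replicate 3 led in 13. Over all genes the shares were 25.9% for normoosmotic replicate 4, 24.2% for hypoosmotic replicate 2 and 25.1% for hypoosmotic replicate 3. Of the 22 other macrophage genes 0 were called in either direction, beside 1.98% of all genes, with a median change of 0.165. Without adjustment 1 of the 22 had a limma p under 0.05, downward. Nr1h3, the oxysterol receptor that is also expressed by hepatocytes, had a change of 0.22 (adjusted p = 0.516) and the iron exporter gene Slc40a1 one of 0.07 (adjusted p = 0.884). Of the 23 other endothelial genes 0 were called, beside 1.98% of all genes, with a median change of 0.125. Without adjustment 6 of the 23 had a limma p under 0.05, 6 upward and 0 downward. Over all 14506 genes 14.6% had such a p, 957 upward and 1156 downward. Ehd3, a membrane trafficking gene, had a change of 0.40 (adjusted p = 0.455) and Dnase1l3, a secreted DNase, one of 0.37 (adjusted p = 0.236). Gata4, the transcription factor of sinusoidal endothelial identity, chosen after its values were seen, averaged 6.09 ± 0.25 in hypoosmotic and 5.40 ± 0.38 in normoosmotic samples (SD, n = 4 each; adjusted p = 0.0730).

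In the other stellate and fibroblast genes 1 of 25 rose and 1 fell, beside 1.98% of all genes called in either direction. Timp1, an inhibitor of matrix metalloproteinases that other liver cells make as well, read 8.52, 9.0, 9.21 and 9.17 in hypoosmotic samples, against 8.02, 7.61, 7.86 and 8.58 in normoosmotic ones. Normoosmotic replicate 4 overlapped with hypoosmotic replicate 1. Timp1 rose by 0.96 ± 0.20 (SE), or 1.94-fold (95% interval 1.44 to 2.62; limma, adjusted p = 0.0282). Bmp5, a ligand of the BMP family, read 4.74, 4.69, 4.55 and 4.94 in hypoosmotic samples, against 5.22, 5.13, 5.25 and 5.35 in normoosmotic ones, and the groups did not overlap. Bmp5 fell by 0.51 ± 0.12 (adjusted p = 0.0428). The calls were lost without single arrays: for Timp1 without any 1 of 6 arrays (adjusted p up to 0.0941) and for Bmp5 without any 1 of 7 (up to 0.127). With the replicate number as a block, Timp1 stayed called and Bmp5 had an adjusted p of 0.0537. The matrix gene Sparc had a change of 0.13 (adjusted p = 0.699), and for the proteoglycan gene Bgn it was −0.06 (adjusted p = 0.90).

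Of 17 growth factor genes that act on these cells, 1 rose and 0 fell, beside 1.98% of all genes called in either direction. Pdgfa, a ligand of PDGF receptors, read 5.55, 5.91, 5.82 and 5.77 in hypoosmotic samples, against 5.04, 5.27, 5.10 and 5.19 in normoosmotic ones, with the groups well apart. Pdgfa rose by 0.61 ± 0.12 (SE), or 1.53-fold (95% interval 1.29 to 1.82; limma, adjusted p = 0.0190). Its adjusted p was 0.0584 and 0.0655 without normoosmotic replicates 1 and 3 and 0.0721 without hypoosmotic replicate 2. Vegfa, the ligand of Kdr and Flt1 made largely by hepatocytes, read 8.53, 8.23, 8.45 and 8.41 in hypoosmotic samples, against 8.85, 8.81, 8.78 and 8.90 in normoosmotic ones. The groups did not overlap, and its change of −0.43 ± 0.11 missed the threshold (adjusted p = 0.0614). Csf1, the ligand of Csf1r, had a change of 0.23 (adjusted p = 0.517). Over the 17 genes the median change was −0.125, and 4 had groups that did not overlap, 1 higher and 3 lower, against 8.27% of all genes. Pdgfra, a PDGF receptor gene chosen after its values were seen, had a change of 0.08 (limma, adjusted p = 0.867). For the ligands Pdgfa and Vegfa and the receptor genes Pdgfra, Kdr and Flt1, whether ligand and receptor changed by different amounts was not tested.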

How the data were processed

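The deposited table holds log2 expression values by the authors for 27596 probe sets on 8 arrays, with 2 decimals, and it was used as deposited. That the scale is log2 was read from the range, 0.88 to 13.26. Per the labels' protocols, Trizol RNA was biotin-labelled for Affymetrix arrays. The software was Transcriptome Analysis Console 4.0, per the submitters' processing notes. How probes were summarised, background-corrected and normalized is not stated there or in the labels. Arrays have no read depth, and 4 per group limit the precision. No detection call was used.

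Of the probe sets, 15310 had 1 symbol in the platform annotation, 323 several and 11963 none. Symbols were updated by gene ID with the RefSeq table of GRCr8 (15279 matched), and for genes with several probe sets the one with the highest mean was taken, giving 14506 genes. The buffers were compared over all of them with limma 3.58.1 in R 4.3.3 (lmFit, eBayes, group alone, two-sided, Benjamini-Hochberg). Errors and 95% intervals come from that fit. The fit was tested on simulated data with the means and spreads of all genes. It called 33.0% of genes changed by 0.5 log2 units, 88.2% of those changed by 1 and 98.3% of those changed by 1.5. Of its calls, 4.48% were unchanged genes. The median pooled SD was 0.29 over the 37 marker genes and 0.19 over all genes, so these shares need not hold for the marker genes.

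The members and lists were chosen with earlier results of these data known, so lists are described by counts and medians without a list test. From the further lists the text names genes called over all genes and the 2 with the highest mean, and says where another was chosen. For the lists of other cell types it gives mostly ranges. Alternatives were leaving out each array, quantile normalization, centring each array on its median, removal of the 25% dimmest genes, all probe sets or their mean per gene, a block for the replicate number, array weights, and a prior with trend and robust fitting. Leaving out normoosmotic replicate 4 and hypoosmotic replicate 2 together was chosen after seeing the data.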

Additional observations from a re-analysis of the deposited data

Results flagged for a closer look

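In 3 of 86 sets of 4 values examined, 1 array stood far from the other 3 by Dixon's ratio, at the 95% critical value for 4 samples, where chance flags about 1 in 20. C1qa read 6.97 in hypoosmotic replicate 2, against 6.34 to 6.41 in the other hypoosmotic samples. Lyve1 read 9.08 in normoosmotic replicate 4, against 8.41 to 8.52 in the other normoosmotic samples. Col3a1 read 7.85 in hypoosmotic replicate 3, against 7.52 to 7.55 in the other hypoosmotic samples.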

How the results depend on the processing

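Under all 17 alternatives 0 of the measured marker genes were called, and the smallest adjusted p was 0.0848, for Tyrobp without normoosmotic replicate 4. Of 628 fits of single marker genes under an alternative, 68 had a sign other than the reported one. They concerned 20 genes with reported changes of at most 0.165 in size, Lyz2 among them, and the largest such value was 0.417 in size, so the signs of these genes and the sign counts of the groups are not settled. The median change ranged from 0.043 to 0.221 for macrophage genes, from 0.022 to 0.183 for endothelial genes and from −0.097 to 0.166 for stellate genes.

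The count of all genes called, 287, ranged from 81 (without hypoosmotic replicate 2) to 365 (without hypoosmotic replicate 4) when 1 array was left out, and fell to 117 and 108 without normoosmotic replicates 1 and 3. Leaving out hypoosmotic replicates 1 and 3 gave 155 and 156. The count was 66 without both normoosmotic replicate 4 and hypoosmotic replicate 2. These fits also had fewer arrays, and the cause of the changed counts was not tested. Timp1 kept its call in 11 of 17 alternatives, Pdgfa in 13 and Bmp5 in 7. With the replicate block 256 genes were called. Same-numbered samples had correlations of 0.046, 0.028, 0.083 and 0.173 between their deviations from the group means, so the numbers were not taken to pair the samples, and not every sample correlated best with its own number. Bmp5 lost its call under the block (adjusted p = 0.0537) and with all probe sets (0.0590).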
